A study of Mus musculus with 18 samples.

Results

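Pla2g4c, Pla2g4a and Plb1 encode phospholipases, enzymes that cut fatty acids from the phospholipids of membranes and food. These are 3 of the 53379 genes in the count table, found by symbol. The set was selected on measured values, namely library-scaled counts in which Pla2g4c was far higher in BMT than in BM libraries of the intestinal set coded LI and Plb1 was lower in BMT libraries of the set coded SI. The choice looked at BMT against BM in liver too, so the values of the 3 genes between treatments are a description in every tissue, with no test.

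RNA was sequenced from female mice of the inbred strain BALB/cJ, aged 6 to 8 weeks. All had been lethally irradiated and had received bone marrow cells (10000000 per mouse). BMT recipients were also given T cells (1000000 per mouse), and BM recipients had marrow alone. Tissue was collected on day 7 as bulk liver and as epithelial cells isolated from both parts of the intestine. Each treatment had 3 libraries per tissue. The descriptions carry the same 6 numbers in every tissue, read here as mice 6, 9 and 10 (BMT) and 2, 4 and 5 (BM), and the labels do not say whether each is a separate animal, so each p-value rests on the spread among these samples, which may be technical. No source used here gives the strain of the donors.

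Libraries held 18845483 to 25610937 counts, so 3 counts, used here as a floor, corresponded to 0.117 to 0.159 counts-per-million (CPM). The labels of the intestinal sets conflict: code LI stands on the 6 libraries with small intestine in their title, and code SI on the 6 with large intestine. Region markers ran against the titles. The homeobox genes Hoxb13 and Hoxd13, which mark the posterior gut, had 0 counts in all 6 code SI libraries, which allows up to 0.159 CPM, and 8 small intestine markers summed to 6679 to 24894 CPM in code SI and 197 to 262 CPM in code LI libraries. The sets are called code SI and code LI below. Mitochondrial transcripts took less of each BMT library than of any BM library of the same tissue, 6.24 to 7.46% in BMT and 9.72 to 10.7% in BM libraries of code LI, 4.83 to 6.01% in BMT and 7.30 to 8.63% in BM libraries of code SI, and 2.77 to 3.08% in BMT and 4.22 to 5.26% in BM livers.

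Phospholipases A2 remove the fatty acid at the middle position of a phospholipid and leave a lysophospholipid. Where the released fatty acid is arachidonate, it feeds the cyclooxygenase and lipoxygenase pathways to prostaglandins and leukotrienes. Pla2g4a encodes the classical cytosolic enzyme, cPLA2 alpha, which calcium draws to membranes and which prefers arachidonate. Pla2g4c encodes the gamma member of the same family. The human enzyme lacks the calcium-binding domain and is held on membranes by a lipid anchor. Plb1 encodes phospholipase B1, a membrane-bound enzyme of the intestinal brush border that removes both fatty acids and also cleaves retinyl esters, the dietary form of vitamin A.

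On GRCm38, Pla2g4c (ENSMUSG00000033847.15) was counted over chromosome 7, 13324655 to 13360672 on the plus strand, Pla2g4a (ENSMUSG00000056220.14) over chromosome 1, 149829618 to 149961290 on the minus strand, and Plb1 (ENSMUSG00000029134.14) over chromosome 5, 32232708 to 32366520 on the plus strand. Gm36840, antisense to Plb1, had 11 counts over all 18 libraries. To show the sequence around a start of each gene with the largest differences, the RefSeq promoter windows (GRCm38.p6, 300 bases that end shortly after the start site, first entry per gene) are printed, with the bases from the start site onward in capitals. The Pla2g4c window is chr7:13325417-13325716 (+) and the Plb1 window chr5:32238834-32239133 (+), and their start sites lie 1012 and 6376 bases inside the genes as counted.
Pla2g4c: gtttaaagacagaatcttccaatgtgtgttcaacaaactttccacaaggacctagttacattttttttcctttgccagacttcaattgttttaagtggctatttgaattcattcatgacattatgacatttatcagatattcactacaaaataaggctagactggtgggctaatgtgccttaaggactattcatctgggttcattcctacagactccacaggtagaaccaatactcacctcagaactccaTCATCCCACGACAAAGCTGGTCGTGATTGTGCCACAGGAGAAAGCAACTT
Plb1: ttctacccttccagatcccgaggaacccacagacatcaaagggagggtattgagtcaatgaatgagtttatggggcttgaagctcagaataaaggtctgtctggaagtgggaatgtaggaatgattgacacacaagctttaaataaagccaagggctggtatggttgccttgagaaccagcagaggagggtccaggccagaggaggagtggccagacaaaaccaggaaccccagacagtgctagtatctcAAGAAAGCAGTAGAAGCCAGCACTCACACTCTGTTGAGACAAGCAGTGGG
Neither window holds, on either strand, the STAT motif TTCNNNGAA, the core of the interferon-stimulated response element or the HNF1 motif, which occur in 8.3%, 3.44% and 0.00913% of 32851 RefSeq promoter windows. That says only that these letters are not in these windows.

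Pla2g4c was among the most abundant transcripts of the intestinal BMT libraries and far lower in the intestinal BM libraries. In code LI libraries it stood at 1194, 1644 and 1297 CPM in BMT mice, against 5.40, 7.14 and 10.0 CPM in BM mice. The means were 1379 ± 235 CPM in BMT and 7.51 ± 2.32 CPM in BM mice (SD, n = 3 each). Every BMT library lay far above every BM library, and the groups did not overlap. The log2 fold change was 7.52 ± 0.27 (SE), or 183-fold, at rank 67 from the top of 14880 genes fitted. Of those genes, 41.4% were called at an adjusted p of 0.05, 20.4% higher and 21% lower in BMT.

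Pla2g4c was also higher in BMT libraries of code SI, where BM mice had more of it than in code LI. Pla2g4c stood at 2822, 2907 and 5140 CPM in BMT mice, against 89.9, 51.1 and 40.3 CPM in BM mice. The means were 3623 ± 1315 CPM in BMT and 60.4 ± 26.1 CPM in BM mice (SD, n = 3 each), again with no overlap. BMT replicate 3 was the highest of all 18 libraries. That library also held transcripts of Alb, the liver's albumin gene, at 94.8 CPM, against at most 1.16 CPM in the other BMT and 0.0909 CPM in BM libraries of code SI. Without it the Pla2g4c log2 fold change was 5.57. The liver libraries themselves held at most 0.189 CPM of Pla2g4c. The part of liver material in the Pla2g4c level of that library was not tested. The log2 fold change was 5.95 ± 0.41, or 62-fold, at rank 63 from the top of 14621 genes fitted, of which 23.4% were called, 11.6% higher and 11.8% lower in BMT. Within the code SI libraries on lane L002 it was 6.11, and within those of code LI on that lane 7.52.

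Pla2g4c also took a visible share of the whole library. It held 0.119 to 0.164% of all counts in code LI BMT libraries, where it ranked 41 to 71 among all genes by CPM, against ranks 8853 to 10095 in BM libraries. In code SI it held 0.282 to 0.514% of counts in BMT libraries and ranked 10 to 19, against 2092 to 4833 in BM libraries. More cells that express a gene and more RNA per cell cannot be told apart in these bulk samples.

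Pla2g4c in liver was at the limit of detection in both treatments. It had 1, 2 and 4 counts in BMT livers and 2, 2 and 0 counts in BM livers, so it did not enter the liver fit and no fold is given. The highest BMT liver had 0.189 CPM, just above the floor, and the groups overlapped.

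**Figure D1:**
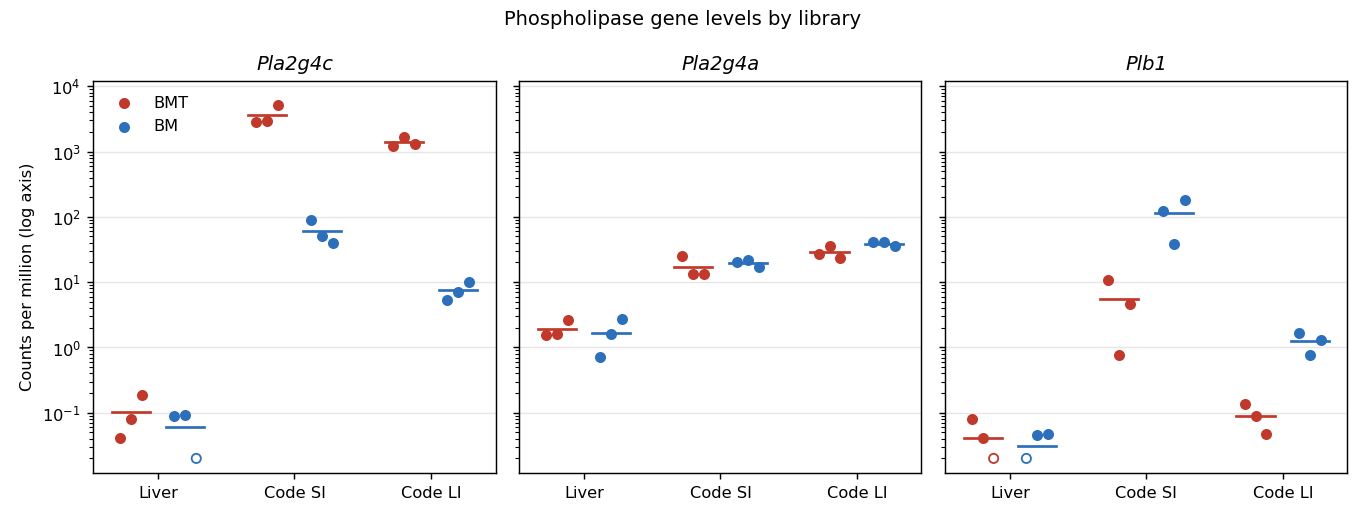
Counts-per-million (log axis) of Pla2g4c, Pla2g4a and Plb1 in each of 18 libraries, by tissue, with BMT (red) and BM (blue). Points are libraries, bars are group means, and open circles at the bottom mark libraries with 0 counts. Pla2g4c lies at 1194 CPM or more in all 6 intestinal BMT libraries, Pla2g4a differs little between treatments, and Plb1 is lower in BMT libraries of both intestinal sets.

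Plb1, the brush border enzyme, ran opposite to Pla2g4c. In code SI libraries it stood at 10.9, 0.772 and 4.59 CPM in BMT mice, against 124, 39.0 and 184 CPM in BM mice. The means were 5.43 ± 5.13 CPM in BMT and 116 ± 72.9 CPM in BM mice (SD, n = 3 each). Both groups spread widely, yet the highest BMT library was below the lowest BM library. The log2 fold change was -4.40 ± 0.75, 21-fold lower in BMT, at rank 19 from the bottom of 14621 genes. It was -5.34 without BMT replicate 1, the highest BMT library, and -3.89 on lane L002 alone, which leaves out BMT replicate 2, the lowest.

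In code LI libraries Plb1 was rare to begin with. It had 3, 2 and 1 counts in BMT mice and 33, 17 and 33 counts in BM mice, or 0.0905 ± 0.0433 CPM in BMT and 1.24 ± 0.46 CPM in BM mice (SD, n = 3 each). The ratio of summed counts, BMT over BM and scaled to library totals, was 0.0744 with an exact 95% interval of 0.0265 to 0.169, which covers counting error only. The groups did not overlap, and the BMT counts lay at or under the floor of 3. Plb1 had 0 to 2 counts in each liver library, was not fitted there and has no fold.

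Pla2g4a, the classical arachidonate-releasing enzyme, differed little between treatments. In code LI libraries it stood at 27.0, 35.7 and 23.2 CPM in BMT mice, against 40.5, 40.7 and 35.7 CPM in BM mice, with means of 28.6 ± 6.43 CPM in BMT and 39.0 ± 2.84 CPM in BM mice (SD, n = 3 each). The highest BMT and the lowest BM library met at 35.7 CPM, so the groups touched. The log2 fold change was -0.44 ± 0.16, and -0.34 on lane L002 alone. In code SI libraries it stood at 25.3, 13.4 and 13.2 CPM in BMT and 20.4, 22.2 and 17.2 CPM in BM mice. These groups overlapped, with a log2 fold change of -0.17 ± 0.25, which was -0.03 without BMT replicate 2, the library on lane L001.

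Pla2g4a was the 1 gene of the 3 with enough counts to be fitted in liver. It stood at 1.55, 1.62 and 2.64 CPM in BMT livers and 0.724, 1.59 and 2.75 CPM in BM livers, and the groups overlapped throughout. The log2 fold change was 0.39 ± 0.43, smaller than its error, and 0.96 on lane L002 alone. Of 14134 genes fitted in liver, 10.8% were called, 7.46% higher and 3.35% lower in BMT.

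The libraries that chose Pla2g4c and Plb1 also set their levels in each tissue, so their differences between tissues are given as values with no test. Pla2g4c was higher in the code SI than in the code LI library of the same mouse in 6 of 6 mice, by 2.15 ± 0.24 on the log2 scale (edgeR with mouse as a block). In BMT mice the values were 2822, 2907 and 5140 CPM in code SI and 1194, 1644 and 1297 CPM in code LI, and in BM mice 89.9, 51.1 and 40.3 CPM in code SI and 5.40, 7.14 and 10.0 CPM in code LI. Plb1 was also higher in code SI in 6 of 6 mice, by 6.07 ± 0.29 in that fit. In BMT mice it stood at 10.9, 0.772 and 4.59 CPM in code SI and 0.134, 0.0898 and 0.0477 CPM in code LI. Those code LI values lay at or under the floor of 3 counts. In BM mice it stood at 124, 39.0 and 184 CPM in code SI and 1.68, 0.763 and 1.29 CPM in code LI. Differences of log2(CPM + 1) ranged from 0.702 to 6.34 among the mice. Pla2g4a, for which the choice named no direction, was tested. It ran the other way and was lower in code SI in 6 of 6 mice, with a log2 difference of -0.85 ± 0.21 (adjusted p = 0.00499, edgeR), although BMT mouse 6 had nearly equal levels of 25.3 CPM in code SI and 27.0 CPM in code LI. In this comparison 32.5% of 17275 genes were called, 16.2% higher and 16.3% lower in code SI.

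Liver held the least of all 3 genes. Pla2g4a was lower in liver than in code LI in 6 of 6 mice, with a log2 difference of -3.41 ± 0.24 (adjusted p = 3.55e-09), and lower than in code SI in 6 of 6 mice, with one of -2.56 ± 0.24 (adjusted p = 9.90e-08). Pla2g4c and Plb1 had 0 to 4 counts in each liver library. Summed over the group, Pla2g4c in BMT mice had 7 liver counts against 90537 in code LI and 240887 in code SI, and in BM mice 4 liver counts against 521 and 3895. Plb1 in BMT mice had 3 liver counts against 6 in code LI, a ratio of 0.466 (exact 95% interval 0.0754 to 2.18), so no difference was detectable at this depth there. In BM mice the Plb1 ratio was 0.0248 (0.00296 to 0.0925). Of 17275 genes, 76.9% were called between liver and code LI (38.3% higher and 38.6% lower in liver) and 77.3% between liver and code SI (38.3% higher and 39% lower). For Pla2g4a, the exact two-sided sign-flip permutation test on log2(CPM + 1) gave p = 0.03125 for each of the 3 pairs of tissues, the smallest value 6 mice allow.

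The order of the group means summarises each gene. For Pla2g4c it ran from code SI BMT through code LI BMT, code SI BM and code LI BM to the livers, and only the 2 liver groups overlapped. For Plb1 it ran from code SI BM through code SI BMT, code LI BM and code LI BMT to the livers. Plb1 in code SI BMT overlapped code LI BM, and code LI BMT overlapped the livers. For Pla2g4a the order was code LI BM, code LI BMT, code SI BM, code SI BMT and the livers. Pla2g4a groups of the 2 treatments overlapped within each tissue, as did code LI BMT and code SI BMT.

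Levels were compared between genes per length, as transcripts-per-million (TPM), over 21 genes: 8 cytosolic and calcium-independent phospholipases A2, 12 of the secreted group (its receptor gene Pla2r1 included) and Plb1. Pla2g4c made up 21.7 to 25.2% of their summed TPM in code LI BMT libraries, against 0.248 to 0.582% in BM libraries. In code SI it made up 25.6 to 42.8% in BMT libraries, against 0.208 to 0.364% in BM libraries. Pla2g2a, a secreted bactericidal enzyme of Paneth cells that is intact in BALB/c and disrupted in C57BL/6 mice, was the highest of the 21 genes in all 12 intestinal libraries. Pla2g4c was the second in all 6 intestinal BMT libraries, while Pla2g10, another secreted enzyme, was second in code LI BM and Pla2g12b, a family member without catalytic activity, in code SI BM libraries. In liver Pla2g12b was the highest.

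The summed TPM was higher in BMT libraries of code LI and lower in those of code SI. It was 3582 to 4470 TPM in BMT and 1187 to 1523 TPM in BM libraries of code LI, and 5372 to 8237 TPM in BMT and 12155 to 14676 TPM in BM libraries of code SI. Pla2g4a made up 0.227 to 0.322% in BMT and 1.09 to 1.22% in BM libraries of code LI, and 0.0645 to 0.192% in BMT and 0.0484 to 0.0544% in BM libraries of code SI. These shares follow the sum as well as the gene, since the CPM of Pla2g4a differed little. Plb1 made up 0.00218 to 0.0455% in BMT and 0.0523 to 0.306% in BM libraries of code SI. In code SI BM libraries 97.8 to 98.4% of the sum was Pla2g2a alone, against 54.7 to 71.2% in BMT libraries.

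**Figure D2:**
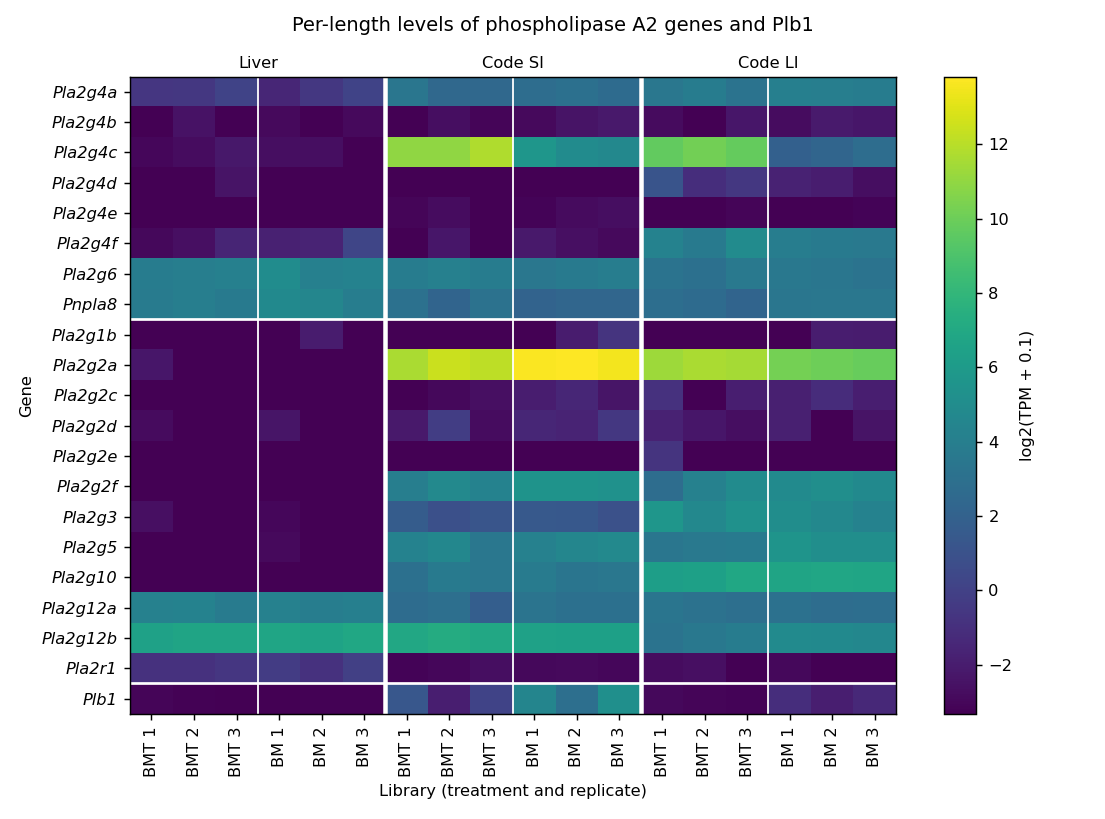
Levels per gene length, log2(TPM + 0.1), of 20 genes of the phospholipase A2 lists and Plb1 (rows) in 18 libraries (columns, by tissue, BMT left of BM). Brighter colours are higher. The Pla2g4c row is bright in the 6 intestinal BMT libraries and dark in liver, Pla2g2a is bright in every intestinal library, and Plb1 is brightest in code SI BM.

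The other cytosolic and calcium-independent enzymes differed less than Pla2g4c in fold. Of 6 such genes, 4 were tested in code LI and 2 in code SI and in liver, while Pla2g4b and Pla2g4e did not pass the filter on low counts in any tissue. Pla2g4d, the delta member, averaged 1.43 ± 1.29 CPM in BMT and 0.20 ± 0.12 CPM in BM mice of code LI (SD, n = 3 each). It had 95 counts in BMT and 13 in BM libraries, a ratio of 7.52 (exact 95% interval 4.19 to 14.6). It passed the filter through its BMT libraries, where it was high, so its call by edgeR is not read as support, and its log2 fold change of 2.85 ± 0.71 was 1.85 without BMT replicate 1. It had 0 counts in all code SI libraries. Pla2g4f, the zeta member, averaged 26.3 ± 11.2 CPM in BMT and 16.5 ± 2.17 CPM in BM mice of code LI, an adjusted p of 0.0738 that became 0.0099 without BMT replicate 2 and 0.0358 with DESeq2. Pnpla8, a calcium-independent enzyme of mitochondria and peroxisomes, fell in code LI to 33.2 ± 7.27 CPM in BMT, against 59.7 ± 2.5 CPM in BM mice (adjusted p = 0.00133). It did not pass in code SI (log2 fold change 0.46, adjusted p = 0.189) or liver (-0.46, adjusted p = 0.300), but passed without code SI BMT replicate 2 (0.0142) or liver BM replicate 3 (0.0202), both on lane L001. Pla2g6, the classical calcium-independent enzyme, was called in none of the 3 tissues by edgeR, with adjusted p of 0.740 in code LI, 0.688 in code SI and 0.415 in liver, nor in any alternative run, DESeq2 included.

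**Figure D3:**
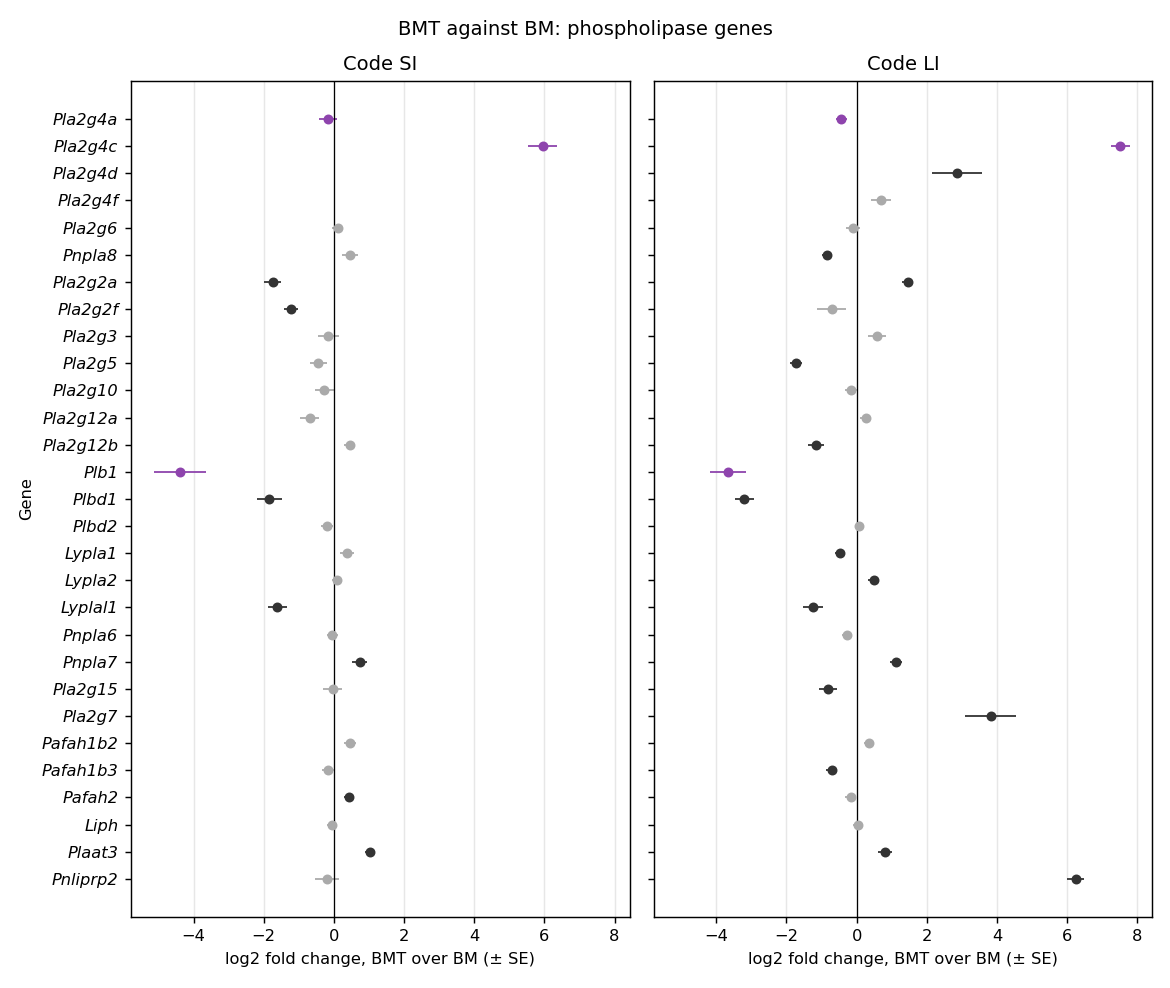
Log2 fold change, BMT over BM, with its standard error for phospholipase genes that passed the filter, in code SI (left) and code LI (right). Purple points are Pla2g4a, Pla2g4c and Plb1, which have no test, black points passed an adjusted p of 0.05 and grey points did not. Pla2g4c lies farthest to the right in both panels and Plb1 farthest to the left.

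The list counts that follow are edgeR calls over the members that passed the filter on low counts, beside the shares of all genes given above. A gene seen in 1 treatment alone passes that filter through it, so these counts and medians describe the lists and support no direction. Among secreted phospholipases A2, 7 were tested in each intestinal set. In code LI Pla2g2a rose (1.45 ± 0.15) while Pla2g5 (-1.73 ± 0.17) and Pla2g12b (-1.17 ± 0.23) fell, a list median of -0.15. In code SI Pla2g2a (-1.75 ± 0.24) and Pla2g2f (-1.23 ± 0.21) fell, a median of -0.45. None rose by edgeR or DESeq2, and 1 was higher at an unadjusted p under 0.05. The median over all genes was 0.00 in code LI, 0.02 in code SI and -0.02 in liver. Relatives of Plb1 were mixed. Of 15 phospholipase B, lysophospholipase and similar genes tested in code LI, 5 rose and 5 fell (median 0.05), with Pnliprp2, a lipase that also acts on phospholipids, at a log2 fold change of 6.24 ± 0.25 and Plbd1, a phospholipase B of lysosomes and granules, at -3.20 ± 0.27. Of 14 in code SI, 3 rose and 2 fell (median -0.04), Plbd1 among the falls (-1.85 ± 0.36). In liver 3 of 15 rose (median 0.00), led by Pla2g7, the platelet-activating factor acetylhydrolase (2.38 ± 0.25).

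The genes that handle the products of these enzymes were counted the same way. Of prostanoid synthesis and breakdown genes, 1 rose and 2 fell of 8 in code LI (median -0.06) and 2 rose of 9 in code SI (0.34). In liver 0 of 11 passed by edgeR (median 0.35), while DESeq2 called 1 higher and 1 lower, and 2 were higher and 1 lower at an unadjusted p under 0.05 by edgeR. Of leukotriene and lipoxygenase genes, 1 rose and 1 fell of 3 in code LI (median -0.09), 3 rose and 1 fell of 6 in code SI (1.18) and 2 rose of 5 in liver (0.59). Alox15, which oxidises arachidonate and linoleate, rose in code LI (4.41 ± 0.25) and code SI (3.99 ± 0.46). Mgst2 fell in both (-0.77 ± 0.14 and -0.53 ± 0.15, the second not past the threshold in 7 of 12 alternatives). Of these 7, lane L002 alone and the run without BMT replicate 2 hold the same libraries. Of eicosanoid receptors, 4 rose and 1 fell of 7 tested in code LI, with a median of 1.63, while 2 rose of 5 in code SI (0.60) and 2 of 8 in liver (0.73). In code LI the prostacyclin receptor Ptgir had 74 counts in BMT and 1 in BM libraries. The leukotriene B4 receptor Ltb4r1 had 91 in BMT and 8 in BM, and the platelet-activating factor receptor Ptafr 71 in BMT and 11 in BM. These receptors passed the filter through their BMT libraries, where they were high, so their calls by edgeR are not read as support. Lysophospholipid reacylation genes, which rebuild phospholipids, rose in 5 and fell in 2 of 14 in code LI (median 0.12), rose in 3 of 14 in code SI (0.19) and in 2 of 13 in liver (0.48). Lpcat4 had the smallest p of these in code LI (2.53 ± 0.16).

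Genes of retinyl ester and fat uptake, the process in which Plb1 acts at the brush border, were counted in code SI, where Plb1 was lower. Of 17 tested there 7 rose, with a median of 0.80. None fell by edgeR or DESeq2, and 2 were lower at an unadjusted p under 0.05 by edgeR. Rbp2, the retinol-binding protein of enterocytes, stood there at 1050 ± 95.5 CPM in BMT and 172 ± 49.6 CPM in BM mice (2.65 ± 0.23, adjusted p = 2.52e-05). In code LI 6 of 15 rose and 3 fell (median 0.40), Lrat, which makes retinyl esters, among the falls (-2.25 ± 0.33). In liver 4 of 15 rose and 1 fell (median -0.07).

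**Figure D4:**
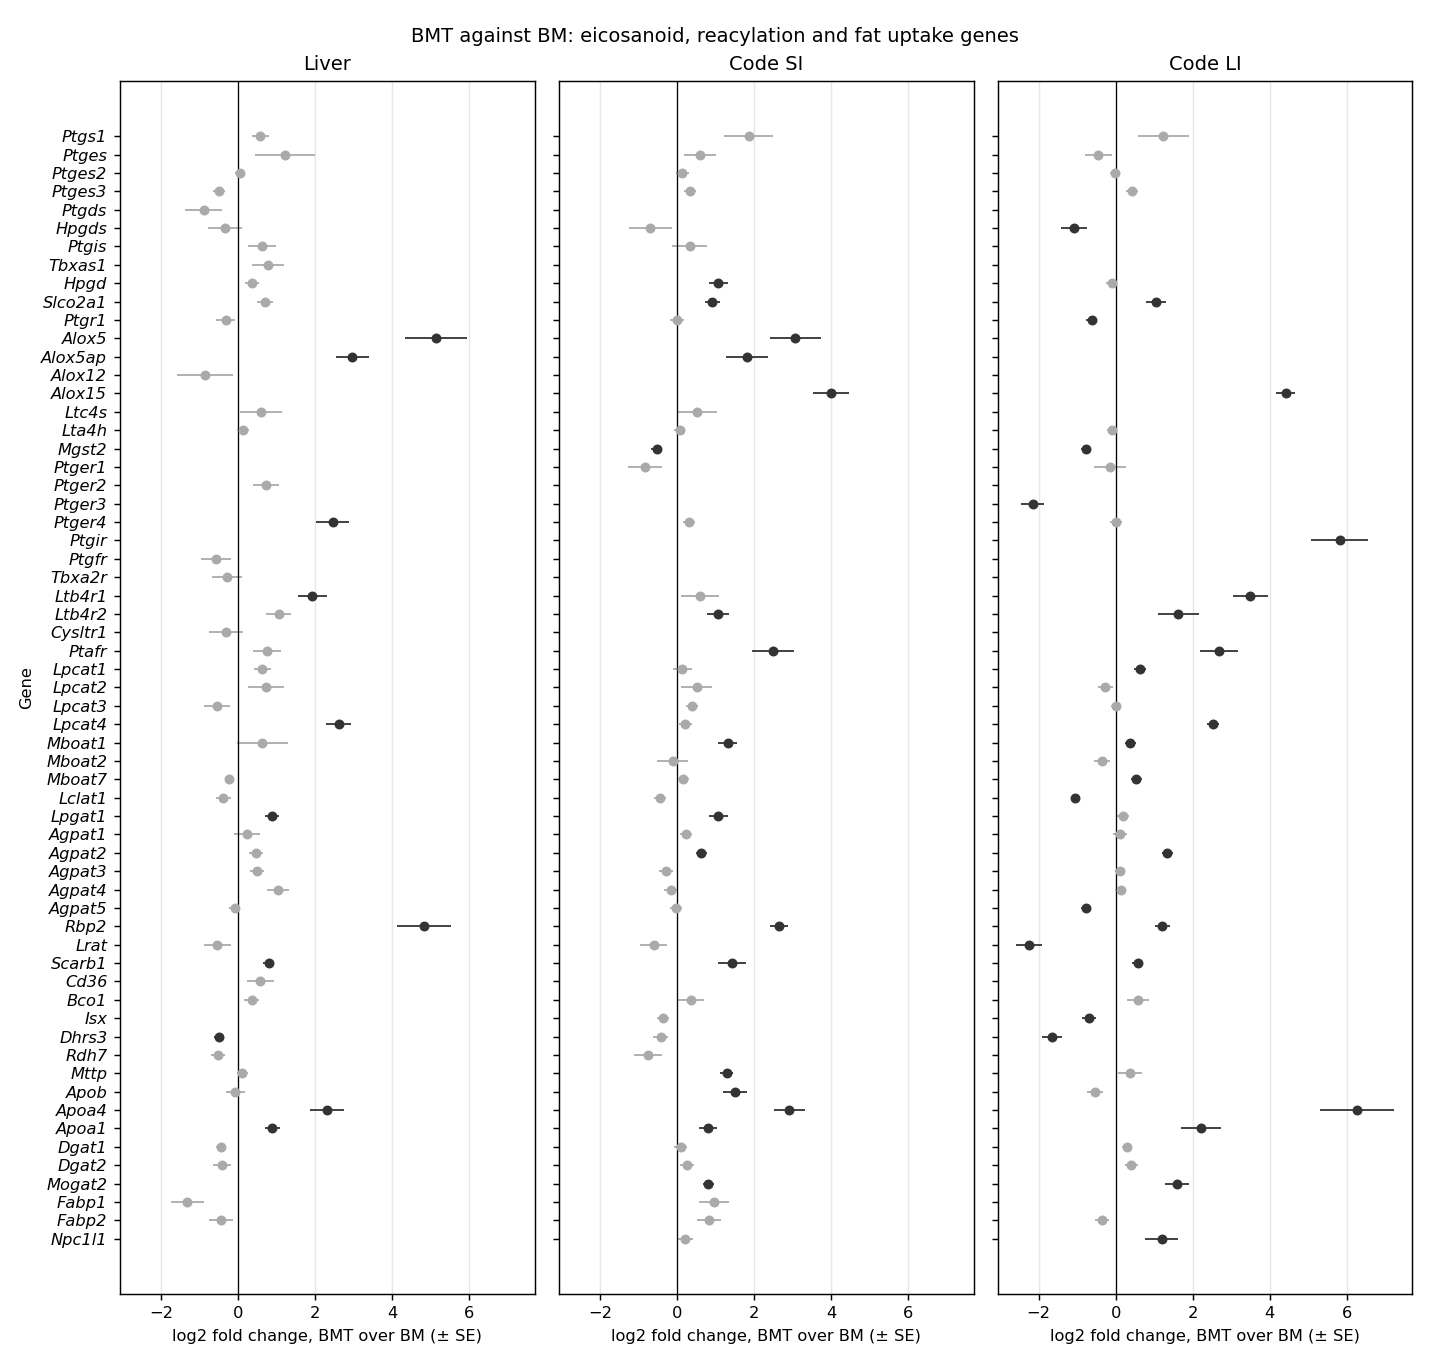
Log2 fold change, BMT over BM, with its standard error for eicosanoid, reacylation and fat uptake genes that passed the filter in liver, code SI and code LI. Black points passed an adjusted p of 0.05 and grey points did not. Alox15 stands right of 3 and Rbp2 right of 0 in both intestinal panels. In liver Rbp2 had 91 counts in BMT and 3 in BM libraries. It passed the filter there through its BMT libraries, where it was high, so its call by edgeR is not read as support.

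Markers of other cells were read beside these values. Summed over 10 T cell genes, all 10 of them above 0.5 CPM in every BMT library, the level was 347 to 550 CPM in BMT and 6.62 to 8.82 CPM in BM libraries of code LI, 176 to 267 CPM in BMT and 4.25 to 13.0 CPM in BM libraries of code SI, and 64.2 to 66.0 CPM in BMT and 3.94 to 7.74 CPM in BM livers. Pla2g4c was at 0.0408 to 0.189 CPM in those BMT livers. In BMT mice, code SI libraries had a lower T cell sum and a higher Pla2g4c level than code LI libraries. The part of T cells in the Pla2g4c level was not tested in any tissue. Myeloid markers (10 genes) summed to 62.8 to 122 CPM in BMT and 38.0 to 41.5 CPM in BM libraries of code LI and to 260 to 607 CPM in BMT and 97.2 to 128 CPM in BM livers, without overlap, but overlapped in code SI, at 18 to 28.8 CPM in BMT and 17.6 to 27.9 CPM in BM libraries, where Mpo had 0 counts in BM. The part of myeloid cells in the liver values of Pla2g7, leukotriene genes and receptors was not tested. Mast cell markers (6 genes) summed to 10.47 to 25.8 CPM in BMT and 35.1 to 37.0 CPM in BM libraries of code LI, and 14.8 to 21.5 CPM in BMT and 47.3 to 68.4 CPM in BM libraries of code SI, but to 3.10 to 4.33 CPM in BMT and 1.09 to 2.66 CPM in BM livers. In code LI most of that sum was Kit, at 9.90 ± 1.43 CPM in BMT and 33.6 ± 3.25 CPM in BM mice, while the mast cell protease Mcpt1 averaged 3.24 ± 4.16 CPM in BMT and 1.72 ± 1.36 CPM in BM mice, with overlap. Sums of 8 fibroblast and smooth muscle markers overlapped between treatments in each tissue. Hepatocyte markers (8 genes) overlapped in the intestinal sets as a sum, which was mostly Hnf4a and, in code SI, Cps1, both also made by gut epithelium, at 1122 to 1408 CPM in BMT and 1274 to 1458 CPM in BM libraries of code LI, and 1909 to 2501 CPM in BMT and 2190 to 2741 CPM in BM libraries of code SI.

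**Figure D5:**
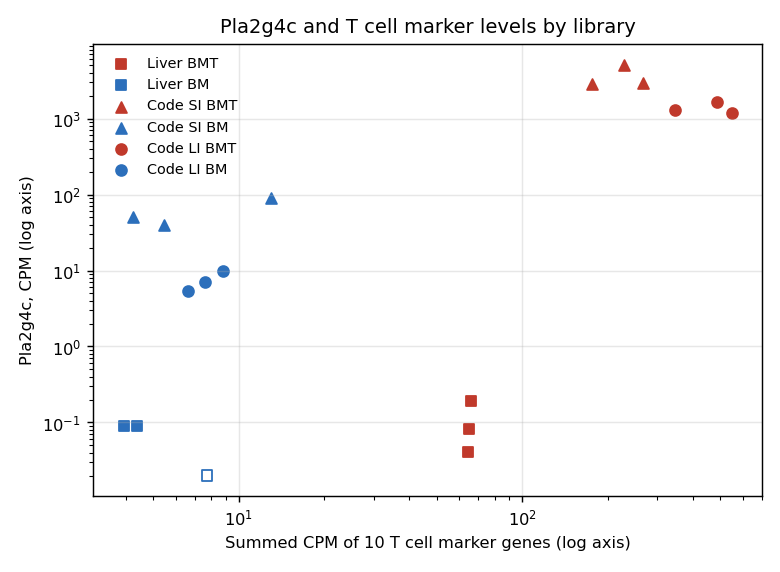
Pla2g4c level against the summed level of 10 T cell markers in each library, both in counts-per-million on log axes, with BMT in red and BM in blue. Squares are liver, triangles code SI and circles code LI, and the open square is a liver with 0 counts. BMT livers lie right of every BM library and are at 0.0408 to 0.189 CPM of Pla2g4c. The part of T cells in these levels was not tested.

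Epithelial markers also differed between treatments. In code SI, where Plb1 was lower, 8 small intestine markers summed to 6679 to 11517 CPM in BMT and 18377 to 24894 CPM in BM libraries, while 8 enterocyte markers shared by both regions summed to 15323 to 23233 CPM in BMT and 11373 to 12756 CPM in BM libraries. The small intestine sum does not give the direction of each of its markers. Apoa4, a member of that list, was higher in BMT in code SI (log2 fold change 2.91, adjusted p = 0.000414, edgeR). In code LI, 8 large intestine markers summed to 5454 to 8688 CPM in BMT and 11003 to 12347 CPM in BM libraries. The part of these shifts in the Plb1 and Pla2g4c values was not tested. With mitochondrial counts left out of the totals, Pla2g4c averaged 1482 CPM in BMT and 8.38 CPM in BM mice of code LI, and Plb1 averaged 5.76 CPM in BMT and 126 CPM in BM mice of code SI.

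The genes whose pattern over the 18 libraries was nearest to each member were found by the root mean square difference of centred log2(CPM + 1) among 13998 genes. Nearest to Pla2g4c were Upp1, a uridine phosphorylase (1.71), and Ang4, an antimicrobial ribonuclease of Paneth and goblet cells (1.74). Ido1, which degrades tryptophan, came next (2.20). These distances were larger than those for Plb1 and Pla2g4a below, so even the nearest genes matched the Pla2g4c pattern only loosely. Upp1 stood at 1139 ± 432 CPM in BMT and 113 ± 15.0 CPM in BM mice of code LI, and Ido1 at 1122 ± 149 CPM in BMT and 97.5 ± 47.8 CPM in BM mice. In code SI Upp1 stood at 1749 ± 220 CPM in BMT and 208 ± 61 CPM in BM mice and Ido1 at 268 ± 13.7 CPM in BMT and 20.9 ± 8.49 CPM in BM mice. Ang4 stood at 629 ± 90.2 CPM in BMT and 8.65 ± 5.56 CPM in BM mice of code LI but at 381 ± 166 CPM in BMT and 347 ± 139 CPM in BM mice of code SI, where Pla2g4c differed 62-fold. Over the 12 intestinal libraries alone none of these stayed among the nearest 3. Those were then Gzma and Gzmb, granzyme genes of cytotoxic lymphocytes, and the chemokine gene Ccl5. The part of lymphocytes in this pattern was not tested. Nearest to Plb1 were the Paneth cell genes Defa26 (0.92) and Reg3a (0.96) and the ileal hormone gene Fgf15 (0.99), of which Defa26 was shared over the intestinal libraries alone. Reg3a stood at 7.98 ± 5.76 CPM in BMT and 70.9 ± 4.67 CPM in BM mice of code SI. Nearest to Pla2g4a were Zfp7 (0.27), Sri (0.29) and Tc2n (0.31), of which Zfp7, a zinc finger gene, was shared over the intestinal libraries alone. Sri encodes sorcin, a calcium-binding protein.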

How the data were processed

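Whole-number counts per gene for 18 RNA-seq libraries were used as the authors deposited them, in 1 table. Per the labels' protocols, RNA was poly(A)-selected and prepared with a stranded kit. Per the submitters' processing notes, tools were FastQC 0.11.9, STAR 2.7.0e and featureCounts 1.6.3, and the build was GRCm38.p5. No source used here gives the annotation release or the strand setting, so reads of a gene and an antisense partner may not be separated, and reads of BALB/c mice were aligned to a reference of another strain. Symbols were matched for 53274 of 53379 IDs through a table of gene names. CPM (counts-per-million, over the library total) and TPM (from the table's gene lengths) were computed from the counts.

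Each tissue was fitted alone with edgeR 4.0.16 in R 4.3.3 (expression filter by group, TMM factors, two-sided quasi-likelihood test), and a gene was called where its p, adjusted by Benjamini-Hochberg over all genes tested, was under 0.05. Standard errors are the log2 fold change over the square root of F. Tissue differences were fitted over 18 libraries with mouse as a block, and exact sign-flip tests were run in Python 3.11.15 with scipy 1.17.1. Both are given with a p for Pla2g4a alone, since Pla2g4c and Plb1 were chosen on these libraries. The mouse numbers come from the descriptions, and libraries of the same mouse deviated from their group means with correlations of -0.23 to 0.38. No replicate pair was a duplicate (chi-square per degree of freedom 12.8 to 248). Of the libraries, 4 ran on lane L001, read from column names.

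The members, the 8 pathway lists and 8 marker lists (170 genes, all in the table, 1 by an older symbol) were chosen with earlier results of these data known. Genes to name were set by rule: all cytosolic and calcium-independent enzymes, the called members of each list (at most 3 by p where over 4 were called), and 3 nearest genes per member. Of the list genes the text gives examples and the plots of fold changes show the rest, liver values of phospholipases apart. Alternatives were DESeq2 1.42.0, its size factors, no filter on low counts, replicate and mouse blocks, 1 fit of all libraries, lane L002 alone, each library left out, other CPM scalings and another pseudocount. The steps were tested on simulated counts.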

Additional observations from a re-analysis of the deposited data

Results flagged for a closer look

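Named genes were flagged where the treatments did not overlap in either intestinal set and the directions were opposite. These traits are thus the criterion and not a finding, and the share of all genes that meet it is not given. Pla2g2a moved in opposite directions in the intestinal sets, with no overlap of the treatments in either. Its log2 fold change was 1.45 in code LI, where it stood at 907 to 1132 CPM in BMT and 327 to 430 CPM in BM libraries, and -1.75 in code SI, at 1139 to 2004 CPM in BMT and 4682 to 6000 CPM in BM libraries. Pla2g12b had log2 fold changes of opposite sign with no overlap of the treatments, although the code SI value did not pass (adjusted p = 0.0600, edgeR). Its log2 fold change was -1.17 in code LI, at 4.25 to 6.87 CPM in BMT and 10.9 to 13.4 CPM in BM libraries, and 0.45 in code SI, at 55.1 to 68.0 CPM in BMT and 43.2 to 49.1 CPM in BM libraries. The difference between the sets was not tested for either gene.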

How the results depend on the processing

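The Pla2g4c and Plb1 changes kept their direction in code LI and code SI under every alternative run. The choice of genes used these contrasts and the treatments did not overlap, so leaving out a library could not reverse the direction. The runs show how far the size moved and are no support for the changes. With each library left out in turn, the Pla2g4c log2 fold change was 7.32 to 7.80 in code LI and 5.57 to 6.40 in code SI, Plb1 was -4.02 to -3.43 and -5.34 to -3.89, and Pla2g4a was -0.57 to -0.34 and -0.52 to -0.03. Genes called then ranged from 4821 to 7220 in code LI (6157 with all libraries), from 2086 (without BM replicate 2) to 3775 in code SI (3420), and from 569 (without BMT replicate 2) to 2617 (without BM replicate 3) in liver (1528), with 732 without BMT replicate 1, 974 without BMT replicate 3 and 681 without BM replicate 2. Liver calls numbered 2174 with DESeq2 and 2167 in 1 fit of all libraries. Libraries that share a title number carry different numbers in their descriptions, and their deviations correlated at -0.27 to 0.47. With that replicate block, calls numbered 5367, 3028 and 1630 in code LI, code SI and liver, and Pla2g4c stood at 7.55 and 5.97. Without the mouse block that pairs tissues, Plb1 in liver against code LI, which rests on 0 to 2 liver counts per library, was -2.31. Mean CPM of Pla2g4a moved beyond 1 SD to 32.4 (TMM scaling) and 43.4 (no mitochondrial counts) in code LI BM, 16.4 in code SI BM and 2.94 in BMT livers (both TMM scaling). Pla2g6, never called, ranged with 1 library left out from -0.323 to 0.0775 in code LI (without BMT replicate 2) and from -0.503 to 0.0121 in liver (without BM replicate 1). The CPM scalings change the total that each count is divided by. The cause of the other shifts was not tested. Of 67 named calls outside the members, 49 were the same in every alternative and 18 changed in at least 1. At these depths Pla2g4c and Plb1 could not be compared between treatments in liver.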
